A study of Mus musculus with 2 samples.

Results

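The urea cycle enzymes examined here are the 7 mouse genes Nags, Cps1, Otc, Ass1, Asl, Arg1 and Arg2, chosen by symbol as the enzymes of the pathway. They are 7 of the 43346 genes listed in each library. The samples are 2 libraries of polyadenylated RNA from adult mouse liver, which the labels number as biological replicates 1 and 2 of a single group. The tissue came from C57BL/6J mice, an inbred laboratory strain, aged 8 weeks, as a pool of male and female littermates, with no treatment and no altered gene named. Both libraries carry the same donor identifier, and no label says that they come from separate animals or pools. A p-value below speaks of these libraries alone, and the spread it measures may be technical. With 1 group there is no comparison of conditions. What the design allows is the level of each gene, the order of the levels, the isoforms, and the difference between the libraries.

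The urea cycle turns ammonia, which is toxic, into urea, which leaves in the urine, and hepatocytes are the cells that run it in full. Its first steps lie in the mitochondrial matrix, where Nags makes the activator of Cps1, Cps1 joins ammonia to bicarbonate, and Otc passes the product to ornithine. In the cytosol Ass1 adds aspartate, Asl splits off fumarate to leave arginine, and arginase releases urea and returns ornithine. Arg1 is the cytosolic arginase known from liver. Arg2 is the mitochondrial arginase known mainly from other tissues. In liver the pathway is known as a periportal one, strongest around the incoming blood vessels and giving way to glutamine synthesis around the central vein.

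How far a level can be read depends on whether the reads of a gene can be told from those of others. For Ass1 a single read often cannot settle this. Ass1 has a processed pseudogene, Gm5424, on chromosome 10 (GRCm38 chr10:62071123-62072362, plus strand), a reverse-copied form of its mRNA. In GENCODE M21, 1234 of 1240 aligned bases were identical between the coding Ass1 isoform and Gm5424, which is 99.5%. A stretch of the Ass1 coding sequence, bases 370 to 429 counted from the start codon (exons 6 and 7 of 16, chr2:31486495-31488586), is shown beside the pseudogene because it holds 2 of the 6 differences. Capitals mark the bases that differ.
Ass1: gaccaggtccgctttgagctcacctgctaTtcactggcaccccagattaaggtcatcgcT
Gm5424: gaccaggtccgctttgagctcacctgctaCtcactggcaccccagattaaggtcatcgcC

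The longest run without a difference was 398 bases, far more than a read of 76 bases. Of 1621 windows of 76 bases along that isoform, 755 (46.6%) also occur in Gm5424. For Nags, Cps1, Otc, Asl, Arg1 and Arg2 the same search found 0 windows in any other annotated gene. The search read each transcript in its own direction only, so overlap with a gene on the opposite strand could not be found. Such overlap exists for Nags (with Gm11586) and for Arg2 (with Vti1b), as given below. The arginases do not share reads at this length. Their coding sequences, 972 bases for Arg1 and 1065 for Arg2 with the stop codon, were 61.0% identical over 1097 aligned columns, and the longest identical run was 12 bases. Both genes have 8 exons in their listed isoform. Exons 2, 4, 5, 6 and 7 have the same lengths in both, at 73, 160, 95, 105 and 137 bases, while exon 3 has 175 bases in Arg1 and 178 in Arg2.

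The libraries held 60770411 and 61688916 estimated reads. Spike-in RNAs took 2.56% and 2.52% of TPM, the unit in which levels are compared here (a transcript abundance, with reads divided by effective length and scaled to a fixed sum). The label of liver was checked against markers. In both libraries 10 of 10 hepatocyte markers found were at 1 TPM or more, led by the serum proteins Alb (32113 and 34763 TPM) and Trf (28886 and 22714 TPM). Of 7 kidney proximal tubule markers 0 reached 1 TPM, as Umod, Kap and Slc34a1 show at or below 0.15 TPM. Of 7 small intestine markers 2 were at 1 TPM or more in both libraries, Fabp2 (11.36 and 5.82 TPM) and Muc2 (1.97 and 3.16 TPM), and Sis had 0 reads.

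Apart from Arg2, the urea cycle genes were among the abundant transcripts of this liver, each above 100 TPM in both libraries. Ass1 stood far above the others, and Arg2 was close to the limit of detection. Together the 7 genes took 0.527% of TPM in replicate 1 and 0.472% in replicate 2, a mean of 0.499% ± 0.0390 (SD, n = 2). Counted as reads, which also reflect transcript length, they took 0.833% and 0.764% of the libraries. Both shares were higher in replicate 1.

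Nags (chr11:102145513-102149477, plus strand, ENSMUSG00000048217) encodes N-acetylglutamate synthase, whose product Cps1 needs for activity. Its level was 129.65 TPM in replicate 1 and 115.74 TPM in replicate 2, from 11638 and 10572 estimated reads. The mean was 123 ± 9.84 TPM (SD, n = 2), which placed Nags 944th among the listed genes.

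Cps1 (chr1:67123026-67231259, plus strand, ENSMUSG00000025991) encodes carbamoyl phosphate synthetase, the mitochondrial enzyme at which ammonia enters the cycle. The libraries gave it 641.64 and 641.07 TPM in the order of their numbers, from 167896 and 169308 reads. With a mean of 641 ± 0.403 TPM (SD, n = 2) it was the second of the 7 genes and 195th of all genes. In deposited TPM its levels differed less between the libraries than those of the other 6 genes, with a coefficient of variation of 0.0628%, whereas in TMM-scaled reads Otc differed less.

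Otc (chrX:10252305-10321024, plus strand, ENSMUSG00000031173) encodes ornithine transcarbamylase and lies on the X chromosome. Its level was 103.08 TPM in replicate 1 and 105.77 TPM in replicate 2, from 10797 and 11232 reads. The mean was 104 ± 1.90 TPM (SD, n = 2). Otc had the lowest level of the 6 genes above 1 TPM.

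Ass1 (chr2:31470207-31520672, plus strand, ENSMUSG00000076441) encodes argininosuccinate synthetase, the cytosolic step that brings in the nitrogen of aspartate. Its level was 3343.44 TPM in the first library and 2984.57 TPM in the second, from 242861 and 218783 reads. The mean of 3164 ± 254 TPM (SD, n = 2) made it the 39th most abundant gene. The pseudogene Gm5424 was listed at 85.16 and 59.75 TPM, with 5841 and 4159 reads. The posterior SD that the authors deposited for the read estimate was 62.11 reads in replicate 1 and 48.79 in replicate 2, the same for Ass1 and for Gm5424. For the other 6 genes of the cycle it was 0. The split between Ass1 and Gm5424 is therefore an estimate, but even the full Gm5424 reads are few beside those of Ass1.

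Asl (chr5:130011258-130029247, minus strand, ENSMUSG00000025533) encodes argininosuccinate lyase, which releases arginine and fumarate. Its level was 537.12 TPM in replicate 1 and 474.05 TPM in replicate 2, from 40599 and 36374 reads. The mean was 506 ± 44.6 TPM (SD, n = 2).

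Arg1 (chr10:24915221-24927484, minus strand, ENSMUSG00000019987) encodes the arginase of the hepatocyte cytosol. Its level was 512.16 TPM in the first library and 394.19 TPM in the second, from 32155 and 25130 reads. The mean was 453 ± 83.4 TPM (SD, n = 2), and the coefficient of variation of 18.4% was the largest of the 6 genes above 1 TPM.

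Arg2 (chr12:79130777-79156301, plus strand, ENSMUSG00000021125) encodes the mitochondrial arginase. It was listed at 0.17 TPM from 10 reads in replicate 1 and at 0.02 TPM from 1 read in replicate 2. The 95% exact Poisson interval, which covers counting error only, ran from 0.0815 to 0.313 TPM in replicate 1 and from 0.000506 to 0.111 TPM in replicate 2. Both libraries were below 1 TPM, the level used here to call a gene detected. Per base of effective length, Arg1 exceeded Arg2 by 3096-fold in replicate 1 (95% counting interval 1683 to 6455) and by 24201-fold in replicate 2 (4344 to 955874). The intervals overlap and are wide, and the lower bound was 1683 or more in both libraries. Vti1b (chr12:79156017-79172667, minus strand) overlaps the last exon of Arg2 on the opposite strand and had 1335 and 1170 reads. Whether reads of Vti1b entered the Arg2 count was not tested, and the ratios of Arg1 to Arg2 rest on that count.

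**Figure D1:**
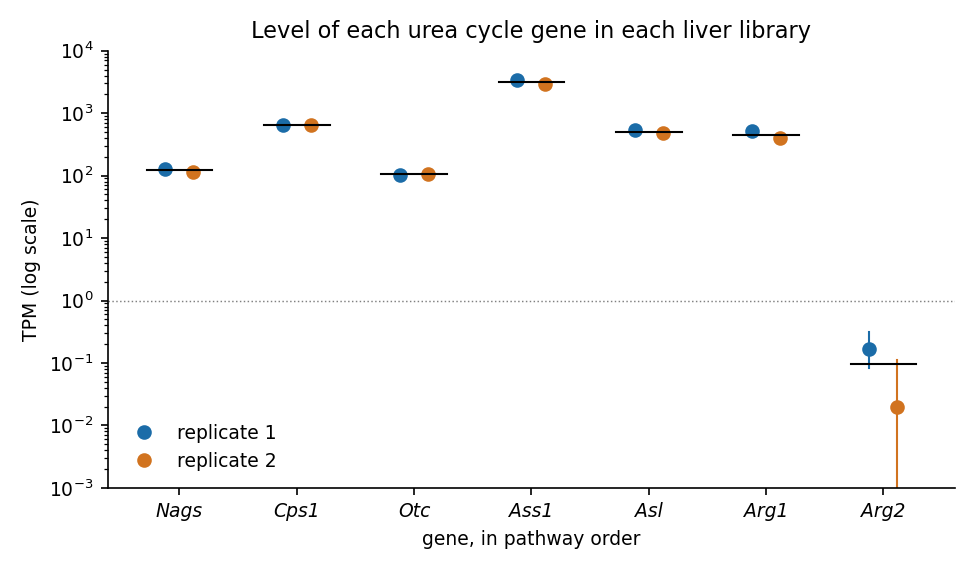
Level of the 7 urea cycle genes in TPM on a log axis, in pathway order. Points are the 2 libraries, horizontal bars their mean, vertical lines the 95% counting interval, and the dotted line is 1 TPM. Ass1 stands at 2985 TPM or more, Nags and Otc lie between 103.08 and 129.65 TPM, and Arg2 lies below 1 TPM in both libraries.

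From the highest to the lowest mean the order was Ass1, Cps1, Asl, Arg1, Nags, Otc and Arg2, the same in each library. Ass1 exceeded Cps1 by 5.21-fold in replicate 1 and 4.66-fold in replicate 2, so the step from the first to the second gene was the widest among the 6 genes above 1 TPM. Asl and Arg1 were the only neighbours whose ranges over the libraries overlapped. Within each library Asl was the higher, by 1.05-fold in replicate 1 and 1.20-fold in replicate 2, and the 95% counting intervals were apart. Cps1 exceeded Asl by 1.19-fold and 1.35-fold, Arg1 exceeded Nags by 3.95-fold and 3.41-fold, and Nags exceeded Otc by 1.26-fold and 1.09-fold, each without overlap of the ranges.

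Within the cycle, levels did not follow the order of the steps. Otc and the gene of the next enzyme, Ass1, stood at the opposite ends of the 6 abundant genes, with Ass1 32.4-fold above Otc in replicate 1 and 28.2-fold in replicate 2. The ratio within the pair that makes and cleaves argininosuccinate was closer between libraries, at 6.22-fold and 6.30-fold for Ass1 over Asl. Among the mitochondrial enzymes, Cps1 exceeded Otc by 6.22-fold and 6.06-fold, and exceeded Nags by 4.95-fold and 5.54-fold.

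Ass1 alone made up 63.5% and 63.3% of the summed TPM of the 7 genes in replicates 1 and 2. Cps1 followed with 12.2% and 13.6%, Asl with 10.2% and 10.1%, and Arg1 with 9.72% and 8.36%. Nags (2.46% and 2.45%) and Otc (1.96% and 2.24%) made up the rest. Counted as reads the picture shifted towards Cps1, whose listed transcript of 5555 bases is the longest of the 7 genes. Cps1 took 33.2% and 35.9% of the reads of the cycle, and Ass1 48.0% and 46.4%.

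The libraries were then compared gene by gene. The test was a two-sided exact conditional binomial test of rounded estimated reads, scaled by TMM in edgeR, with Benjamini-Hochberg adjustment at 0.05 over 14533 genes with at least 20 reads. It asks whether 2 libraries differ by more than counting error, and at this depth small differences pass: 57.1% of the genes tested were called, and 75.8% of the 5481 genes at a mean of 10 TPM or more. Of the urea cycle genes 6 were tested and 6 were called higher in replicate 1, where 28.8% of all genes tested and 47.4% of those at 10 TPM or more were called in that direction. None was called higher in replicate 2, where 28.4% of genes were called at either level. Arg2 had too few reads to be tested.

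The called differences were small in size. None of the 6 tested genes differed by 1.5-fold, a size that 16.4% of all genes tested and 8.41% of those at 10 TPM or more passed with a call. Arg1 had the largest difference, a log2 ratio of replicate 2 to replicate 1 of -0.50 (95% counting interval -0.52 to -0.48), or 1.41-fold. Asl had a log2 ratio of -0.30 (-0.32 to -0.28), Ass1 of -0.30 (-0.30 to -0.29) and Nags of -0.28 (-0.32 to -0.25), so 3 genes of different steps lay close together. Cps1 had -0.13 (-0.14 to -0.12) and Otc -0.09 (-0.13 to -0.05). The adjusted p of the exact test (Benjamini-Hochberg) was 3.3e-47 for Nags, 2.75e-155 for Cps1, 2.12e-05 for Otc and 5.61e-185 for Asl, and for Ass1 and Arg1 it was too small to be represented and was returned as 0.

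Abundant genes as a whole sat on the same side. Among 1113 genes at a mean of 100 TPM or more the median log2 ratio was -0.13, and the middle 95% ran from -0.76 to 0.66. The 6 tested urea cycle genes all lay within that range. Cps1 lay at its median, Otc above it, and Nags, Ass1, Asl and Arg1 below it.

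The direction held under 4 scalings for Nags, Ass1, Asl and Arg1, but not for Cps1 and Otc. TMM and DESeq2 size factors set the median of all genes at 0.00, whereas scaling by total reads moved it to 0.13 and scaling by spike-in reads to 0.15. Relative to the median gene the 6 ratios keep their places, but the sign of the smallest depends on where 0 is put. For Cps1 the log2 ratio was -0.01 with total reads, and with spike-in reads it turned to 0.02. For Otc it turned to 0.03 with total reads and 0.06 with spike-in reads, and the ratio of the deposited TPM was 0.04. Cps1 and Otc are therefore given by their values, with no direction.

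**Figure D2:**
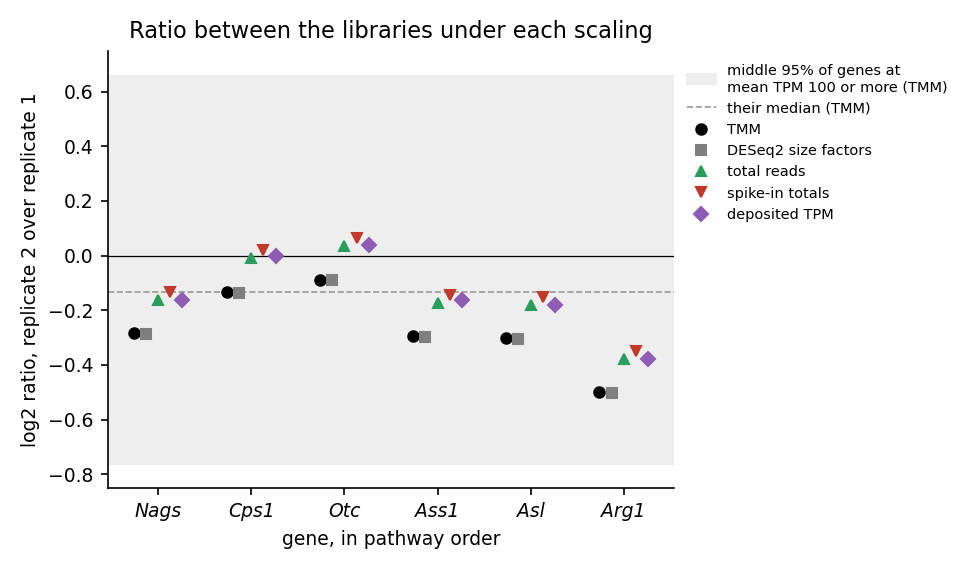
Log2 ratio of replicate 2 to replicate 1 for the 6 tested urea cycle genes in pathway order. Symbols are 5 ways of scaling, the grey band is the middle 95% of the 1113 genes at 100 TPM or more (-0.76 to 0.66) and the dashed line their median of -0.13. Nags, Ass1, Asl and Arg1 lie below 0 under each scaling, while Cps1 and Otc cross it.

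Markers of other liver cells moved between the libraries as well. Beside their counts, 28.4% of all genes tested were called higher in replicate 2 under TMM, as were 28.4% of those at 10 TPM or more. The Kupffer cell and macrophage list summed to 198.82 TPM in the first library and 327.20 TPM in the second, and 10 of its 10 genes were called higher in replicate 2, among them the complement genes C1qc (55.53 and 89.82 TPM) and C1qb (47.51 and 76.41 TPM). Of 8 liver endothelial markers 7 were called higher in replicate 2, with a summed level of 116.75 and 164.13 TPM, led by Clec4g (40.96 and 49.63 TPM) and the scavenger receptor Stab1 (27.29 and 44.80 TPM). Of 5 red blood cell genes, which summed to 1290 and 2110 TPM, 4 were called higher in replicate 2, with Hba-a2 at 504.80 and 746.54 TPM and Hbb-bs at 395.08 and 655.30 TPM, and Alas2 (40.32 and 35.13 TPM) was called higher in replicate 1. Their part in the lower Nags, Ass1, Asl and Arg1 of replicate 2 was not tested. In bulk tissue, fewer cells of a type and less RNA per cell cannot be told apart.

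Stellate cell markers summed to 100.69 and 115.11 TPM, led by Dcn (63.90 and 76.34 TPM) and Reln (15.34 and 18.97 TPM). Of these 8 genes 4 were called higher in replicate 2, beside 28.4% of all genes tested. Lrat, which esterifies retinol, was called in the other direction (6.68 and 2.97 TPM). Cholangiocyte markers summed to 32.69 and 31.57 TPM, led by Spp1. Lymphocyte markers reached 5.98 and 13.23 TPM, led by the B cell genes Cd79a and Cd79b, and neutrophil markers 3.51 and 5.46 TPM, led by Csf3r and S100a8. Small intestine markers summed to 13.70 and 9.32 TPM, and pancreatic acinar markers to 9.77 and 6.60 TPM, led by Cela2a and Ctrb1.

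Of 10 hepatocyte markers 9 were called higher in replicate 1 under TMM, 8 of them under each scaling, with a median log2 ratio of -0.30 under TMM. Of genes at 10 TPM or more 47.4% were called in that direction under TMM, and the median at 100 TPM or more was -0.13. Alb, the most abundant of the 10 markers, had a log2 ratio of -0.01 and no direction that held under each scaling. Apoa1, an apolipoprotein, was called higher in replicate 2. Of 8 periportal markers 6 were called higher in replicate 1 and 2 higher in replicate 2, with a median of -0.36. The periportal gene Gls2 had 2449 and 1449 TPM, whereas Cyp2f2, a cytochrome of the same zone, had 1617 and 2085 TPM. Of 9 pericentral markers 8 were called higher in replicate 1 under TMM, 5 of them under each scaling, and 1 higher in replicate 2, with a median of -0.43. The 2 most abundant were Cyp2e1 (2076 and 2174 TPM) and Oat (1523 and 919.04 TPM). Both zone lists thus leaned towards replicate 1 under TMM but held genes called in either direction. The 6 tested urea cycle genes, known as periportal, were called higher in replicate 1 under TMM, 4 of them under each scaling. Cps1 and Otc turned under spike-in scaling.

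Isoforms are given as the deposited percent of the TPM of each gene. Cps1, Arg1 and Arg2 are listed with 1 isoform each, so no share can be read for them. For Nags, 3 isoforms are listed. The coding isoform Nags-201 held 81.85% and 82.80% in replicates 1 and 2, a mean of 82.3% ± 0.672 (SD, n = 2). The other 18.15% and 17.20% was assigned to models annotated as non-coding. Nags-203, which starts inside the first intron, held 12.25% and 10.76%. Nags-202, which keeps 3 introns, held 5.90% and 6.44%. The order of the 3 isoforms was the same in both libraries.

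The introns kept in Nags-202 are short, at 98, 287 and 265 bases, and each begins with GT and ends with AG. The first of them, intron 2 of Nags-201 (chr11:102146765-102146862, plus strand), is shown as the shortest of the 3, longer than a read but short enough for a read pair to cross. Capitals mark the intron and lower case the 20 exon bases on either side.
Nags intron 2: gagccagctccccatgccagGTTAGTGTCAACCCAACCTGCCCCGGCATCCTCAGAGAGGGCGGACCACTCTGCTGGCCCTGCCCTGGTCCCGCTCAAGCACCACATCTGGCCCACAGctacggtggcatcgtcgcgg

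An antisense gene, Gm11586 (chr11:102145549-102146246, minus strand), overlaps the first exon of Nags. It was listed at 15.86 and 16.43 TPM, from 292 and 313 reads. The libraries are stranded per the labels, but no source used here says whether the counting used the strand. The read estimates of both genes are whole numbers with a deposited posterior SD of 0, unlike those of Ass1 and Gm5424.

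For Otc, 2 isoforms are listed that differ in their last exon. Otc-201 held 97.42% and 96.88%, a mean of 97.2% ± 0.382 (SD, n = 2). Otc-202 held 2.58% and 3.12%, from 364 and 456 estimated reads. Both isoforms share their first 9 exons within the coding part and then end in different ones, so the predicted coding ends differ. Otc-201, the isoform with nearly all of the signal, carries the downstream of the 2 last exons.

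**Figure D3:**
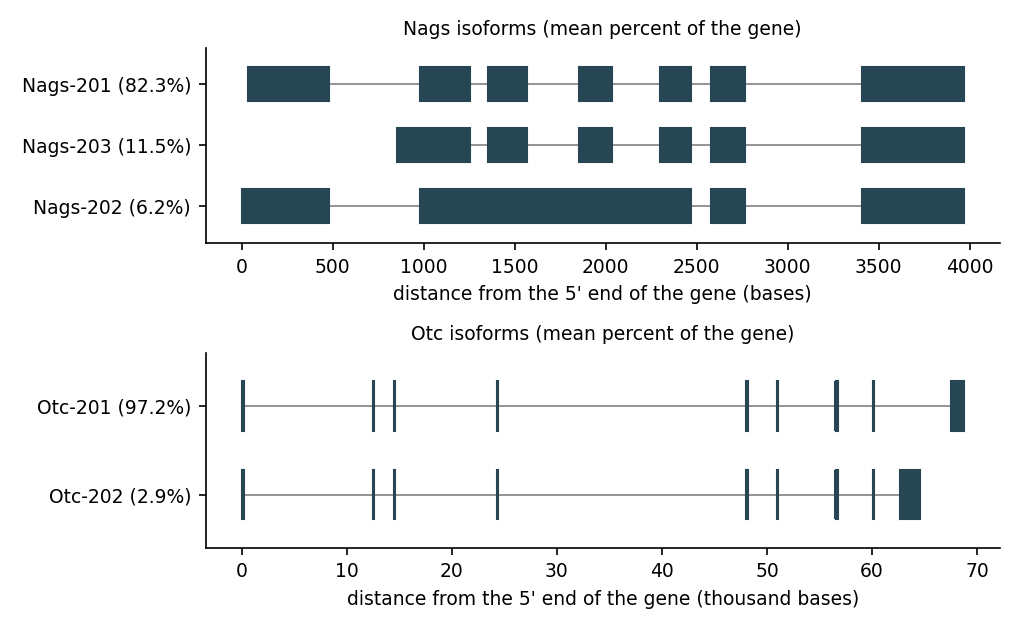
Exons (boxes) and introns (lines) of the listed isoforms of Nags and Otc, by distance from the 5′ end of each gene, with the mean percent of the gene. Nags-203 (11.5%) starts inside the first intron, Nags-202 (6.17%) keeps 3 introns as 1 long exon, and Otc-202 (2.85%) ends in an exon upstream of that of Otc-201 (97.2%).

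For Ass1, the coding isoform held 98.54% and 97.92%, a mean of 98.2% ± 0.438 (SD, n = 2). The other 3 models are annotated as retaining an intron and together held 1.46% and 2.08%. They are short, so their share of the reads of the gene was smaller than their share of TPM. The most abundant of the 3 held 1.20% of TPM on average but 0.224% of reads.

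Asl had the most divided signal of the 7 genes, with 9 isoforms listed. Asl-202 held 69.65% in replicate 1 and 64.11% in replicate 2, and Asl-205 held 21.26% and 26.67%. In both libraries Asl-202 was the first and Asl-205 the second, without overlap. Both have a coding part of 1392 bases in GENCODE M21, with 18 exons in Asl-202 and 17 in Asl-205. They differ at the 5′ end and in the last exon, which has 206 bases in Asl-202 and 443 in Asl-205. The Asl-202 model has 1820 bases in the deposited tables and 2088 in GENCODE M21, so the model to which reads were assigned is not the one described by GENCODE M21. Asl-206 held 5.31% and 6.75%, and Asl-201 held 3.13% and 1.24%. The share of Asl models annotated as coding was 99.43% and 99.08%.

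**Figure D4:**
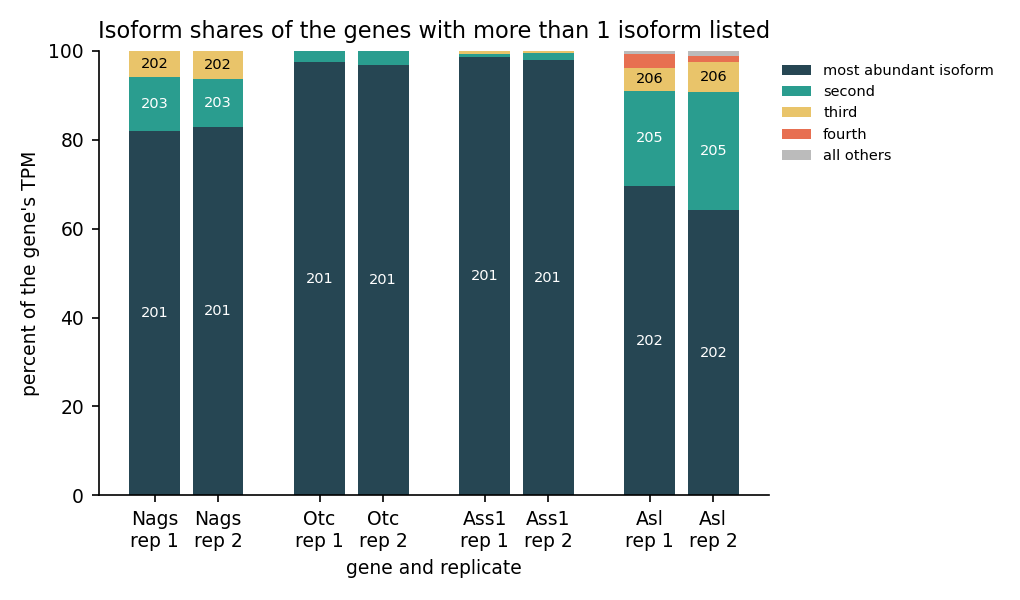
Share of each isoform in percent of the TPM of its gene, as stacked bars for Nags, Otc, Ass1 and Asl in replicates 1 and 2. Otc and Ass1 are nearly all 1 isoform (97.2% and 98.2% on average), Nags-201 holds 82.3%, and Asl is split between Asl-202 (66.9%) and Asl-205 (24.0%).

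Promoter sequence was given for Ass1, Nags and Otc in the RefSeq table of GRCm38.p6, and 3 of the 7 genes matched. Over the 250 bases before the start in that table, the GC content was 75.6% for Ass1, 55.6% for Nags and 43.6% for Otc. The Ass1 window (chr2:31470020-31470269) runs past the GENCODE M21 start of Ass1 at 31470207, so it holds part of exon 1. The Nags and Otc windows end just before their GENCODE M21 starts, so the Ass1 value is not fully alike. Across 32851 promoters in the table the median was 52.4%, with quartiles of 45.2% and 61.2%. The most abundant of the 3 transcripts thus had a GC content above the upper quartile and the least abundant one below the lower quartile, which describes 3 genes and no relation. The GC box letters GGGCGG, searched on both strands in windows of 300 bases, occur in Ass1 and Nags and in 35.7% of all promoters. The Ass1 match, at -63 from the start in that table, begins at 31470207 and so lies in exon 1 of GENCODE M21. The TATA box letters TATAAA occur in 13.6% of promoters, the C/EBP core TTGCNNAA in 10.8%, the HNF4A-type run CAAAGTCCA in 0.475% and the cyclic AMP response element TGACGTCA in 1.79%, and in none of the 3 windows.

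The genes around the cycle were read from 6 lists, and each gene is given beside the level of the enzymes. Beside the counts for these lists, 28.8% of all genes tested were called higher in replicate 1 and 28.4% higher in replicate 2 under TMM. At 10 TPM or more these shares were 47.4% and 28.4%. Of the 6 carriers that move intermediates across the mitochondrial membrane, 5 were tested, 2 were called higher in replicate 1 and 1 higher in replicate 2, with a median log2 ratio of -0.04. Slc25a15, the exchanger that brings ornithine to Otc, had 118.73 and 90.05 TPM, with a log2 ratio of -0.53. That level is close to those of Otc and Nags. Slc25a22, a glutamate carrier, had 257.30 and 295.94 TPM, with a log2 ratio of 0.03. Slc25a13, the aspartate and glutamate exchanger known from liver, had 47.92 and 43.38 TPM. Slc25a2, a second ornithine carrier, was listed at 0.07 and 0.02 TPM from 4 and 1 reads.

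Of 13 genes listed for the supply of bicarbonate, ammonia or amino groups, 13 were tested. Of these, 11 were called higher in replicate 1, 9 of them under each scaling, with a median log2 ratio of -0.30. Over all genes tested 28.8% were called higher in replicate 1, and 47.4% of those at 10 TPM or more. Of the 2 called higher in replicate 2, Hal, histidine ammonia lyase, had 235.97 and 296.62 TPM. Gls2, the liver glutaminase, which frees ammonia from glutamine, had 2449 and 1449 TPM and a log2 ratio of -0.78. In TPM it was second only to Ass1 among the genes of the cycle and this list. By reads Gls2 (88112 and 56873) lay below Cps1 (167896 and 169308) and Glud1 (91734 and 82445). Glud1, glutamate dehydrogenase, had 617.57 and 564.07 TPM (-0.30), close to Cps1. Car5a, the mitochondrial carbonic anhydrase that makes bicarbonate for Cps1, had 295.23 and 174.96 TPM (-0.88). Gldc, of the glycine cleavage system, had 111.90 and 80.06 TPM (-0.61). With TMM scaling Gls2, Car5a and Gldc differed by more than 1.5-fold, which the 6 tested urea cycle genes did not.

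Genes listed around the use of ornithine and arginine moved both ways. Of 11 genes 10 were tested, with a median log2 ratio of 0.07. Called higher in replicate 1 were 3, 2 of them under each scaling: Oat, Azin1 (88.18 and 67.29 TPM) and Odc1 (29.80 and 28.19 TPM). The 4 called higher in replicate 2 were at low levels. They were Gatm (2.65 and 8.54 TPM), Azin2 (0.67 and 1.47 TPM), Aldh18a1 (0.23 and 0.96 TPM) and Pycr1 (0.21 and 0.53 TPM). Oat, which turns ornithine towards glutamate and is known from pericentral hepatocytes, had 1523 and 919.04 TPM (-0.86). It exceeded each urea cycle gene except Ass1. Agmat, an agmatinase, had 379.36 and 418.93 TPM and was not called. The nitric oxide synthases, which compete for arginine, were low, with Nos3 at 2.21 and 2.46 TPM, Nos2 at 0.05 and 0.02 TPM and Nos1 at 0.03 and 0.04 TPM.

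Of 8 genes for urea and amino acid transport, 6 were tested, 3 were called higher in replicate 1, 1 of them under each scaling, and 1 higher in replicate 2. Slc38a3, a glutamine transporter, had 3019 and 3971 TPM with a log2 ratio of 0.23, a level near that of Ass1. Slc38a4, an amino acid transporter, had 499.56 and 514.83 TPM. The urea transporter Slc14a1 had 0.18 and 0.21 TPM, and Slc14a2 and the aquaglyceroporin Aqp3 had 0 reads in both libraries. Aqp9, the aquaglyceroporin known from hepatocytes, had 92.71 and 98.02 TPM.

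Of 15 genes known to regulate the enzymes or their genes, 15 were tested, 8 were called higher in replicate 1 and 3 higher in replicate 2, with a median log2 ratio of -0.10. Under each scaling 4 of the 8 were called higher in replicate 1. Gcgr, the glucagon receptor, had 454.13 and 482.68 TPM. Cebpa, a transcription factor of hepatocytes, had 324.98 and 298.48 TPM (-0.25). Klf15, a transcription factor known for control of amino acid breakdown, had 206.48 and 123.47 TPM (-0.87).

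The last list holds 7 genes that make or use fumarate, malate or aspartate, among them the malate dehydrogenases, which lead fumarate back towards aspartate, and Adsl, which releases fumarate. All 7 were tested, 3 were called higher in replicate 1, 2 of them under each scaling, and Me1 and Adsl were called higher in replicate 2, with a median log2 ratio of -0.12. Mdh1, the cytosolic malate dehydrogenase, had 330.62 and 301.84 TPM (-0.32). Its mitochondrial partner Mdh2 had 280.66 and 278.25 TPM. Hal, Sds, Gls2, Oat, Hnf4a and Cebpa stand both in these lists and among the hepatocyte or zone markers, so those counts are not separate observations.

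**Figure D5:**
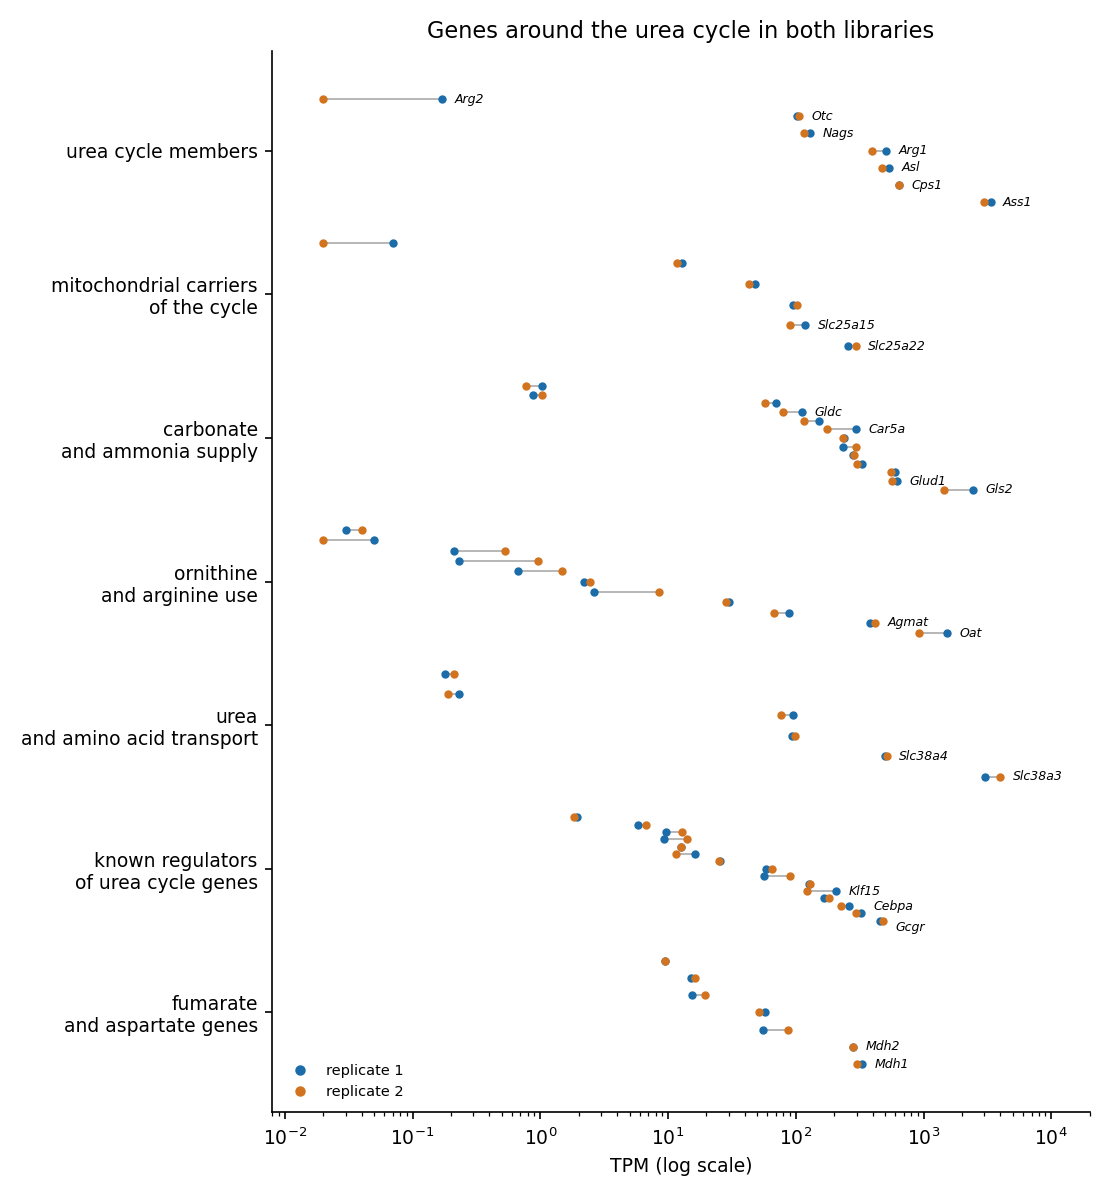
Levels in TPM on a log axis for the urea cycle genes and 6 lists of genes around the cycle, 1 row per gene with a point for each library joined by a line. Genes at 0 reads in both libraries are left out. Ass1, Gls2, Slc38a3 and Oat lie highest, and the lines of Gls2, Oat, Car5a and Klf15 are longer than those of the 6 abundant urea cycle genes.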

How the data were processed

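Polyadenylated RNA longer than 200 nucleotides, depleted of ribosomal RNA, was read as stranded pairs of 76 nucleotides in both libraries, per the labels. Reads were quantified by the authors on mm10 with GENCODE M4, per the notes deposited beside the files. No source used here names the aligner or the counting tool. The estimated counts deposited for each gene need not be whole, since reads that match several genes are shared out. The TPM deposited by the authors divide them by effective length, so short genes depend most on fragment size. The deposited percent of a transcript is its share of the TPM of its gene. The deposited posterior SD of a count is used as a score of shared reads. Splice junction and contig files on mm9 were not used here.

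Symbols, coordinates and transcript sequences came from GENCODE M21 on GRCm38, the assembly of mm10. Of 43346 genes 42462 matched by identifier. The 97 spike-in and phage control entries and 26248 numeric entries (0 reads) stayed out of scaling. Counts were rounded and scaled by TMM (edgeR 4.0.16, R 4.3.3). Genes with a sum of at least 20 reads over the libraries were tested by the exact binomial test with Benjamini-Hochberg adjustment at 0.05, and log2 ratios used a prior count of 0.5. The test was tested on simulated Poisson counts, which hold counting error only, as the test assumes. That simulation cannot show how the test fares with spread beyond counting error. A gene is called detected at 1 TPM. Exact intervals at 95% cover counting error alone, because without molecular identifiers reads do not stand for independent molecules.

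Alternatives were total reads, spike-in reads, DESeq2 1.42.0 size factors, other filters, posterior means, deposited TPM ratios, other denominators and leaving out a library. The 7 enzymes and the gene and marker lists were chosen with earlier results of these data known. The text names the 7 enzymes, the 2 genes of each list with the highest mean TPM, and list genes that passed the test at 1.5-fold or more with a mean of 10 TPM or more. Other genes were named for their role or their call after their values were seen. Some genes that the rule selects are not reported here. The planned protein comparison of Arg1 and Arg2 was not run, and coding sequences were compared instead with Biopython 1.88.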

Additional observations from a re-analysis of the deposited data

How the results depend on the processing

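The order of the 7 genes was the same (21 of 21 pairs) with posterior mean TPM, reads per annotated length, reads with no division by length, and either library alone, although in replicate 2 by reads alone Otc (11232) passed Nags (10572). The summed share of TPM was 0.499%, between 0.472% and 0.527% without 1 replicate each, and 0.604% when TPM were rescaled over nuclear protein-coding genes. The number of urea cycle genes called higher in replicate 2 was 0 under TMM and 2 with spike-in totals, Cps1 at a log2 ratio of 0.0190 and Otc at 0.0639. Otc also reversed with total reads (0.0348) and with deposited TPM (0.0372), and Cps1 with total reads no longer passed the exact test (-0.01, Benjamini-Hochberg adjusted p = 0.0704). Of the called genes, 49.7% were higher in replicate 2 under TMM, 69.4% when scaled by total reads and 73.6% by spike-ins. In the main setting 8301 of 14533 genes tested were called, against 7676 to 8622 under the other settings. The numbers tested differ with the filter. With at least 100 reads 7676 of 12086 were called, and without the filter 8328 of 19412, both under TMM. With spike-ins 8622 of 14533 were called. Without the filter on low counts Arg2, at 10 and 1 reads, passed the exact test (Benjamini-Hochberg adjusted p = 0.0191). Whether reads of the overlapping gene Vti1b are among those of Arg2 was not tested. Isoform shares by reads in place of TPM were 9.49% for Nags-203, 8.44% for Nags-202, 3.72% for Otc-202 and 2.87% for Asl-206. Adding the reads of Gm5424 to Ass1, chosen after seeing the data, changed no call. No paired analysis was possible because the design holds 1 group. With 2 libraries of 1 group, n limits each SD, and at 10 and 1 reads depth limits Arg2.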
